A study of Mus musculus with 12 samples.

Results

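Retnla and 9 other genes used as marks of alternatively activated macrophages (Chil3, Mrc1, Cd163, Mgl2, Clec10a, Folr2, Lyve1, F13a1 and Ccl24) were followed in 12 mouse tumors. They were chosen by name from the symbols of the deposited tables, with values of these data already known, and are 10 of 34678 symbols. All 10 were found, and all 10 had a mean of at least 0.1 FPKM (fragments normalized to transcript length and library size) over the 12 tumors. The tumors were grafts of LLC1-shLkb1, grown in C57BL/6 mice that were 6 to 8 weeks old. In this Lewis lung carcinoma line the kinase gene Lkb1 (Stk11) was knocked down by short hairpin RNA. The study grew the line both under the skin and in the chest, and its RNA sequencing methods do not state the site of these tumors. The 4 arms held 3 tumors each. Vehicle mice received a control antibody, and palbociclib mice received 100 mg/kg of the CDK4/6 inhibitor by mouth. Anti-PD-1 mice received 200 µg of the checkpoint antibody per mouse, and combination mice received both agents. Both agents were given on set days of a weekly cycle. The study's animal methods state that tumors were collected 2 weeks after treatment, and do not give the length of the course. Every arm carried the knockdown, so no tumor without it was compared, and Stk11, at 7.90 to 11.5 FPKM, does not check the labels of the arms. Whole tumors were sequenced, so a lower level of a gene can come from fewer cells of a type or from less RNA per cell, and these cannot be told apart.

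Macrophages take on the alternatively activated state when the cytokines IL-4 or IL-13 bind a receptor that holds the IL-4 receptor alpha chain. Janus kinases then phosphorylate the transcription factor STAT6, which turns on genes for lectins, scavenger receptors, chemokines and small secreted proteins. The state is known from parasite infection, wound repair and tumors, and macrophages of healthy adipose tissue share many of its genes. Retnla encodes a secreted resistin-like protein (RELM-alpha, also called FIZZ1), one of the most used marks of the state in mice, and it is also expressed in white adipose tissue. The question taken up was therefore whether Retnla varied with the macrophage genes of these tumors or with fat genes such as Adipoq, the gene of the hormone adiponectin.

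Retnla lies on the forward strand of chromosome 16 (GRCm38, chr16:48842551-48844461 in GENCODE M21). Its upstream sequence is shown because it holds letters like those STAT6 and the C/EBP factors, which act in macrophages and fat cells, are known to bind. The 192 bases of chr16:48842359-48842550 (RefSeq, GRCm38.p6), which end before the gene start of both annotations, read as follows, with the matches in capitals.
Retnla: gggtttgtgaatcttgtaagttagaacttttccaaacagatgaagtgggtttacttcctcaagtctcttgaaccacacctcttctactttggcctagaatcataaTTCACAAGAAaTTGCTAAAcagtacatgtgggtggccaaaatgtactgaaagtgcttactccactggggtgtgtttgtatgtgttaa
The first match, TTCACAAGAA, has the STAT6 letters TTCNNNNGAA and lies 145 to 136 bases before the RefSeq start. The second, TTGCTAAA, has the C/EBP letters TTGCNNAA, lies 134 to 127 bases before it and does not overlap the first. Both strands were searched in windows of 250 bases upstream of 32851 RefSeq starts, and 5.85% of the windows held the first motif and 9.56% the second. Of the 7 members with such a window, 1 held each motif, and it was Retnla both times. Of 10 fat genes with a window, Cidec held the first, and Cidec, Lep and Plin1 held the second. These are matches of letters and do not show binding.

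Retnla was at 1.40, 0.651 and 0.165 FPKM in vehicle replicates 1 to 3 and at 40.5, 10.6 and 14.3 FPKM with palbociclib. With anti-PD-1 it was listed at 0, at 0.205 and at 0 FPKM, and with the combination it was at 50, 16.3 and 0.722 FPKM. The palbociclib arm lay above the vehicle arm and the combination arm above the anti-PD-1 arm without overlap, while combination replicate 3 stayed among the vehicle tumors. The first held for 5 members (Retnla, Chil3, Clec10a, Folr2 and F13a1) and 12.9% of all tested genes, the second for 2 members (Retnla and Mgl2) and 11.4%, and both for 1 member, Retnla, and 1.95%. No member had all 6 tumors with palbociclib above the 6 without it, as 1.02% of genes had. The steps between low FPKM values returned whole fragments, 393, 94 and 142 for Retnla with palbociclib and 479, 167 and 7 with the combination, against at most 13 in a tumor without palbociclib. Values at 0 are given as listed, since the mitochondrial genes mt-Nd4 and mt-Co1, which every cell uses, were also listed at 0 in 1 and 2 tumors.

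**Figure D1:**
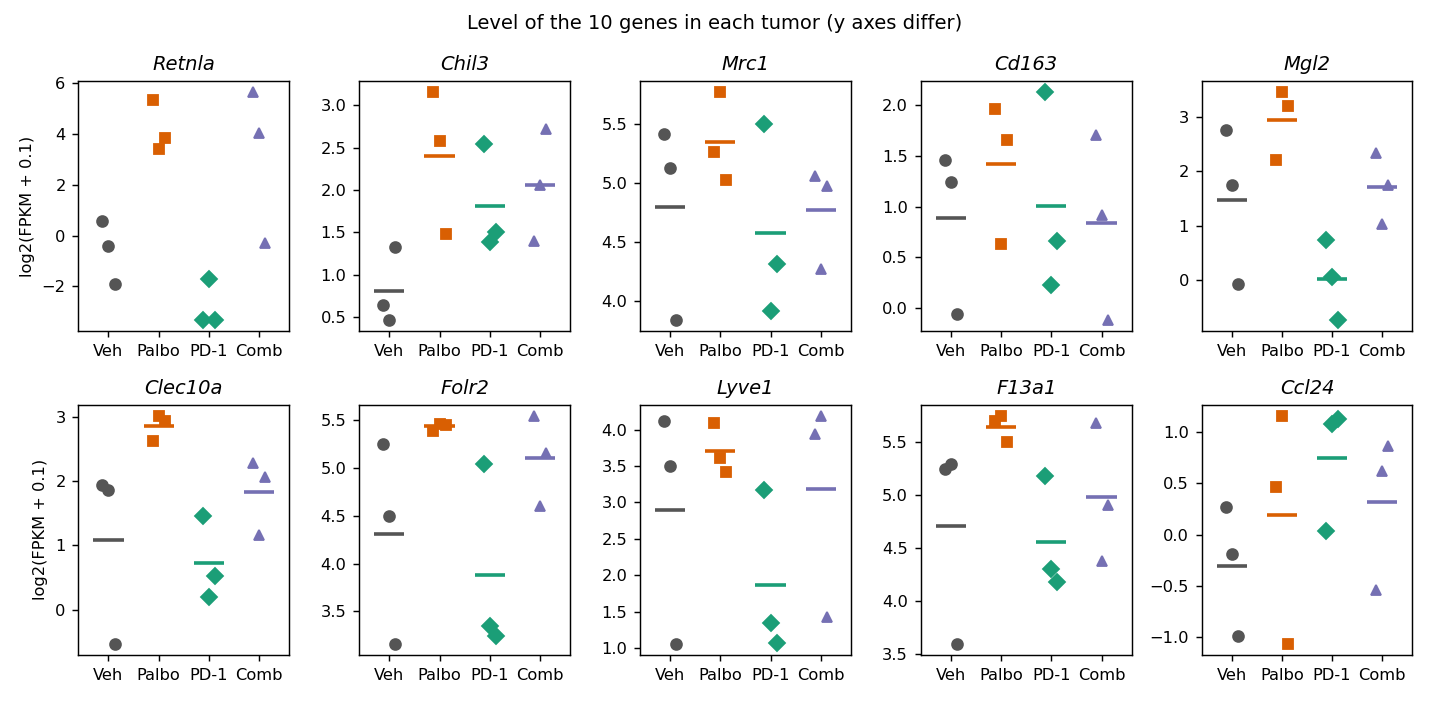
Level of the 10 genes in each tumor as log2(FPKM + 0.1), in the vehicle (Veh), palbociclib (Palbo), anti-PD-1 (PD-1) and combination (Comb) arms. Points run from replicate 1 to 3 within an arm, lines are arm means, not drawn for Retnla, which is listed at 0 in 2 tumors, and the y axes differ between panels. The palbociclib points of Retnla sit above every vehicle and anti-PD-1 point, and the points of Mrc1, Cd163 and Ccl24 overlap between arms.

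Differences between arms are given on the log2(FPKM + 0.1) scale, which understates changes of low genes, with their standard errors from limma over all 12 tumors. The palbociclib effect is the mean of palbociclib minus vehicle and of combination minus anti-PD-1. For Retnla it was 5.35 (SE 0.88), rank 3 among 15350 tested genes, from 4.78 (SE 1.25) without and 5.92 (SE 1.25) with the antibody. Retnla was the only member among the 48 genes, 0.313% of those tested, that passed an adjusted p of 0.05 for the palbociclib effect, and since the list was drawn up with these values known nothing is read from that. Those 48 calls fell to 0 without palbociclib replicate 1 and combination replicate 1, where the Retnla difference was 4.44 (SE 0.83), and also when any 1 of 5 single tumors was left out (vehicle replicate 2, palbociclib replicate 3, anti-PD-1 replicate 2 or 3, or combination replicate 1).
Combination minus vehicle was 3.71 (SE 1.25). Anti-PD-1 minus vehicle was -2.21 (SE 1.25), combination minus palbociclib -1.07 (SE 1.25) and the interaction 1.13 (SE 1.77). Retnla had 0, 2 and 0 fragments in the anti-PD-1 tumors. Differences from that arm and the interaction therefore depend on the 0.1 added to FPKM.

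The lectins and scavenger receptors were detected in all 12 tumors. Mrc1, the mannose receptor CD206, was at 42.6, 34.7 and 14.2 FPKM with vehicle, 38.2, 54.3 and 32.4 with palbociclib, 45.2, 15 and 19.8 with anti-PD-1, and 33.1, 19.2 and 31.3 with the combination. All 4 arms overlapped, and the palbociclib effect was 0.37 (SE 0.33), or 0.13 without vehicle replicate 3 and 0.60 without anti-PD-1 replicate 1. Cd163, the receptor for haptoglobin bound to hemoglobin, lay between 0.825 and 4.25 FPKM, with its highest level in anti-PD-1 replicate 1 and a palbociclib effect of 0.18 (SE 0.43) that was -0.17 (SE 0.46) without palbociclib replicate 1 and combination replicate 1, -0.05 without vehicle replicate 3 and 0.46 without anti-PD-1 replicate 1. Lyve1, a hyaluronan receptor of lymphatic endothelium and of some resident macrophages, ranged from 10.6 to 16.9 FPKM with palbociclib and from 1.99 to 17.3 with vehicle.
Its effect was 1.06 (SE 0.62), and it was 0.60 without vehicle replicate 3 and 1.50 without combination replicate 3.

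Mgl2 and Clec10a encode galactose-type lectins (CD301b and CD301a) of macrophages and dendritic cells. Mgl2 was at 6.64, 3.25 and 0.86 FPKM with vehicle, 4.49, 10.8 and 9.09 with palbociclib, 1.57, 0.945 and 0.505 with anti-PD-1, and 4.94, 1.94 and 3.26 with the combination. The combination arm lay above the anti-PD-1 arm, and the palbociclib and vehicle arms overlapped. Clec10a was at 3.73, 3.52 and 0.593 FPKM with vehicle and at 6.08, 7.98 and 7.56 with palbociclib, which did not overlap, and at 2.65, 1.04 and 1.33 with anti-PD-1 and 4.76, 2.14 and 4.07 with the combination, which did. The palbociclib effects were 1.57 (SE 0.46) for Mgl2 and 1.44 (SE 0.42) for Clec10a. The genes are neighbours on chromosome 11 and share sequence. Of the 50-base words of Mgl2 transcripts, 13.1% occurred in another gene, most often Clec10a, so reads of the pair may have been split between them.

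Folr2, the folate receptor beta of tissue macrophages, was among the higher members. It was at 38.1, 22.5 and 8.87 FPKM with vehicle, 41.8, 43.9 and 43.7 with palbociclib, 32.8, 10.1 and 9.35 with anti-PD-1, and 46.5, 24.2 and 35.5 with the combination. F13a1, the A subunit of clotting factor XIII, was at 37.8, 39.1 and 12 FPKM with vehicle, 51.7, 53.5 and 45 with palbociclib, 36.1, 19.6 and 18 with anti-PD-1, and 51, 20.6 and 29.9 with the combination. For both genes the 3 palbociclib tumors lay above the 3 vehicle tumors, while the combination and anti-PD-1 arms overlapped. The effects were 1.17 (SE 0.38) for Folr2 and 0.68 (SE 0.32) for F13a1, which was 0.41 without vehicle replicate 3.

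The 2 other secreted products were among the lower members. Chil3, the chitinase-like protein Ym1 of macrophages and neutrophils, was at 1.46, 1.28 and 2.40 FPKM with vehicle, 8.80, 5.90 and 2.68 with palbociclib, 5.74, 2.51 and 2.73 with anti-PD-1, and 2.53, 4.07 and 6.49 with the combination. All 9 treated tumors lay above the 3 vehicle tumors, as 1.11% of tested genes did. The palbociclib effect of 0.92 (SE 0.33) came from a difference of 1.59 (SE 0.47) without the antibody and 0.25 (SE 0.47) with it. Of its 50-base words, 26.9% occurred in another gene, mostly Chil4, which was listed at 0 in all 12 tumors. Ccl24, the chemokine eotaxin-2 that attracts eosinophils, lay between 0.380 and 2.12 FPKM, both in the palbociclib arm, with an effect of 0.03 (SE 0.41), which was -0.11 under quantile normalization and -0.21 to 0.34 when each tumor was left out, lowest without palbociclib replicate 2 and highest without palbociclib replicate 3.

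Over the 10 members the median palbociclib effect was 0.99, beside a median of 0.06 over all tested genes. All 10 effects were above 0, as were 59.8% of all effects, and 5 were at least 1 on the log2 scale, as were 3.65% of all. The members were chosen with these values known, so nothing is read from these counts or from the median. The median effect was also 1.04 for 16 macrophage genes, 0.98 for 12 genes of tissue-resident macrophages and 1.15 for 10 other genes of alternative activation. For the anti-PD-1 effect the median of the members was -0.40, beside -0.04 over all tested genes, and no gene passed the test (limma, 0 of 15350, 1039 at an unadjusted p under 0.05).

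**Figure D2:**
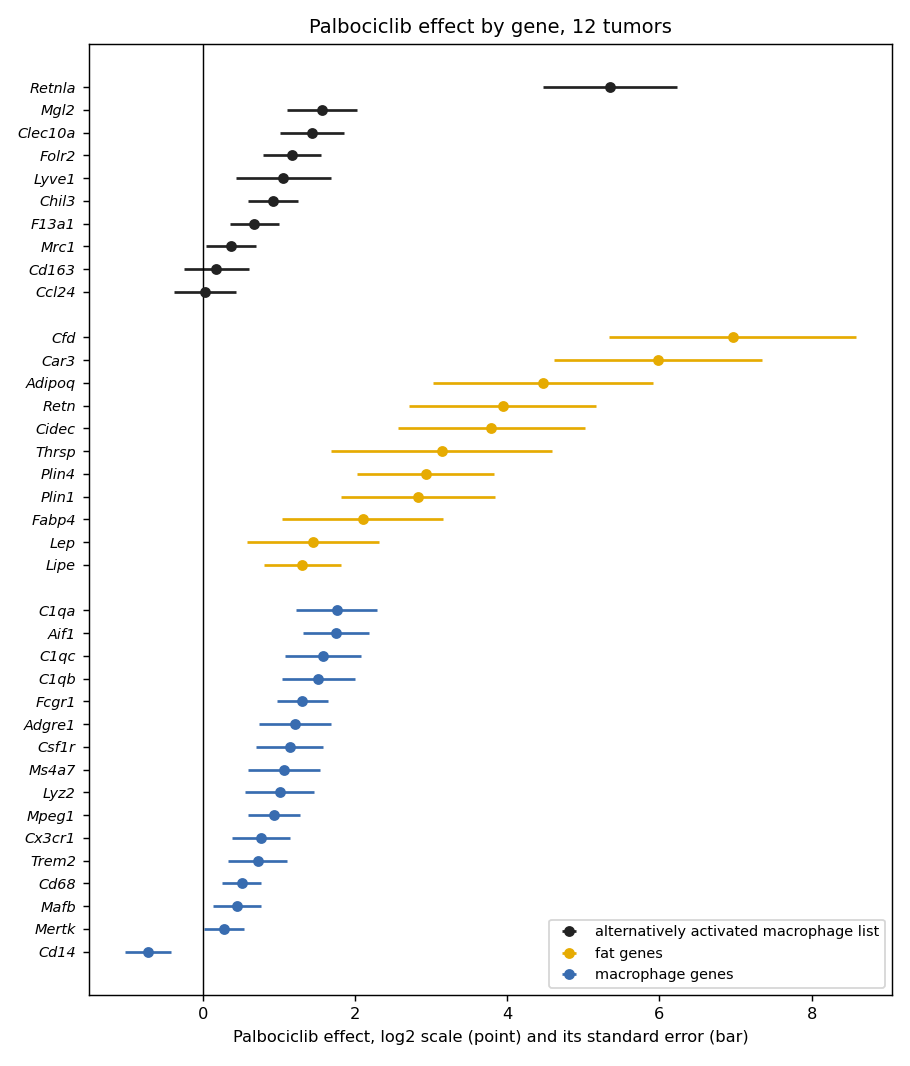
Palbociclib effect of the 10 members, 11 fat genes and 16 macrophage genes on the log2(FPKM + 0.1) scale, points with standard errors as bars, 12 tumors. Retnla, at 5.35, lies within the range of the fat genes, from 1.31 for Lipe to 6.96 for Cfd, and above every macrophage gene, from -0.72 for Cd14 to 1.76 for C1qa.

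Most listed fat genes were high in the tumors where Retnla was. Adipoq was at 34.6, 0.757 and 2.34 FPKM with palbociclib and at 102, 1.17 and 0 with the combination. In the vehicle and anti-PD-1 tumors it did not exceed 0.229 FPKM. Cfd, the gene of adipsin, a complement protease made by fat cells, was at 280, 10.2 and 24.7 FPKM with palbociclib and at 668, 10.6 and 0.134 with the combination, against at most 0.509 elsewhere. So 5 of the 6 tumors with palbociclib lay above all 6 without it for Retnla, Adipoq and Cfd alike, and the exception was each time combination replicate 3. In those 5 tumors 8 of the 12 fat genes lay above all 6 tumors without palbociclib. Lep, Fabp4 and Acvr1c did so in neither palbociclib replicate 2 nor combination replicate 2, and Thrsp did not in palbociclib replicate 2. The levels were not in a fixed ratio. Retnla was 1.17 times Adipoq in palbociclib replicate 1 and 0.492 times in combination replicate 1, but 14.0 times in palbociclib replicate 2 and in combination replicate 2 and 6.13 times in palbociclib replicate 3.

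Of 12 listed fat genes 11 were tested, and 0 passed an adjusted p of 0.05 for the palbociclib effect in limma, although 8 were higher at an unadjusted p under 0.05 and all 11 effects were above 0. Over all tested genes 14.1% were higher and 6.44% lower at an unadjusted p under 0.05, 20.5% together. The median effect of the 11 fat genes was 3.14. The largest, 6.96 (SE 1.62, limma adjusted p = 0.0836), was that of Cfd. Car3, a carbonic anhydrase abundant in fat and muscle, had 5.98 (SE 1.37, limma adjusted p = 0.0816). Of 16 macrophage genes 0 passed, 10 were higher and 1 was lower at an unadjusted p under 0.05, beside those 14.1% and 6.44%, and the median was 1.04. C1qa, a subunit of the first complement component, had 1.76 (SE 0.53, limma adjusted p = 0.123), and Lyz2, the macrophage lysozyme, 1.01 (SE 0.45, limma adjusted p = 0.236). Cd14, the co-receptor for endotoxin, had the lowest value, -0.72 (SE 0.30, limma adjusted p = 0.219).

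**Figure D3:**
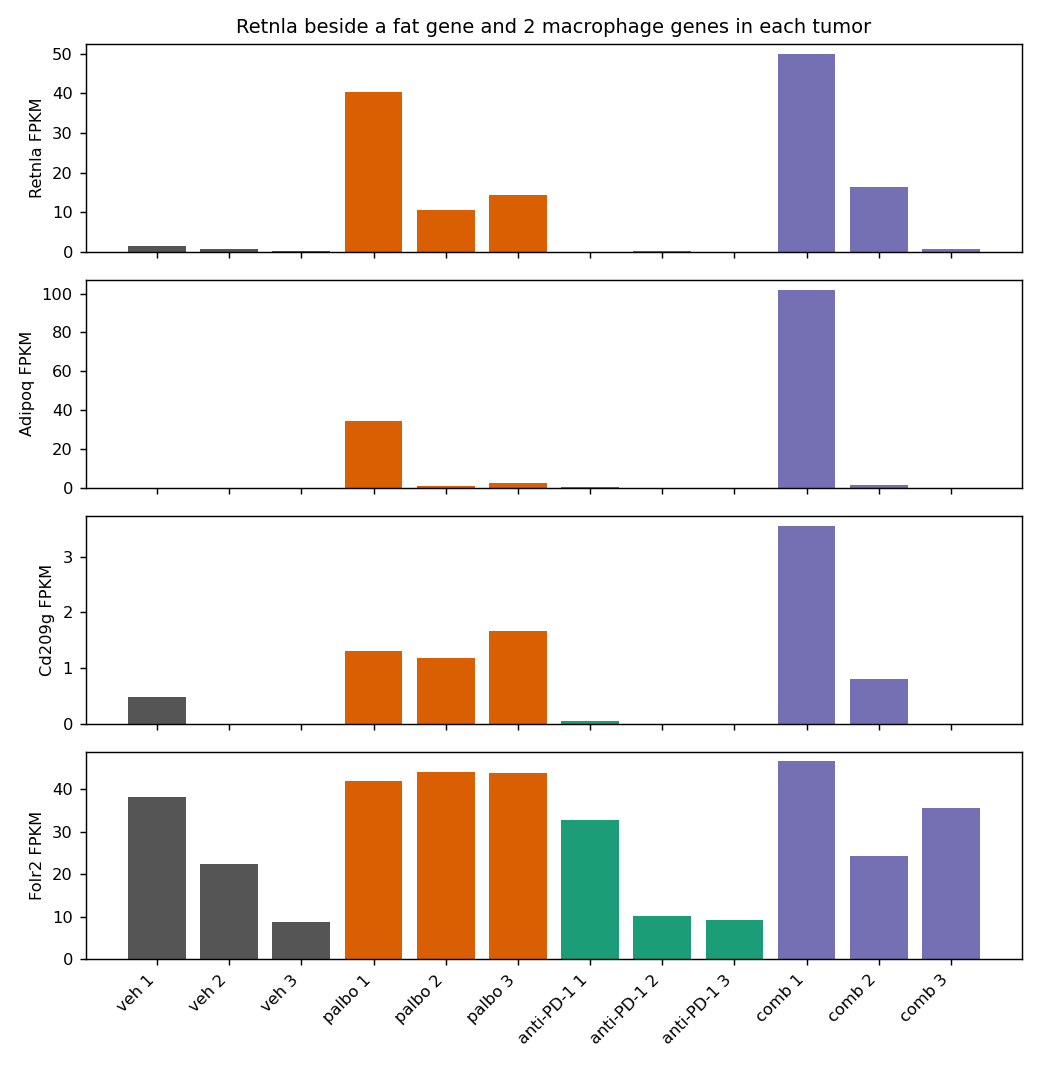
FPKM of Retnla, the fat gene Adipoq and the macrophage genes Cd209g and Folr2 in each of the 12 tumors, 1 bar per tumor, colored by arm (veh, vehicle; palbo, palbociclib; comb, combination). Retnla, Adipoq and Cd209g are near 0 in combination replicate 3, where Folr2 is at 35.5 FPKM, and Retnla is listed at 0 in anti-PD-1 replicate 1, where Folr2 is at 32.8 FPKM.

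To compare tumors, the mean log2(FPKM + 0.1) of the 12 fat genes and of the 16 macrophage genes was taken as a score, with no member in either. The fat score was -2.10 to -2.71 in the vehicle arm and -1.91 to -2.76 in the anti-PD-1 arm. It was 3.47, -0.60 and 0.32 in the palbociclib tumors and 4.74, -0.30 and -2.43 in the combination tumors. The macrophage score was 4.15, 4.74 and 4.46 with palbociclib, 4.66, 3.61 and 4.68 with the combination, 4.46, 3.52 and 2.72 with vehicle and 4.21, 2.76 and 2.89 with anti-PD-1. Vehicle replicate 1, anti-PD-1 replicate 1 and combination replicate 3 thus had macrophage scores of 4.21 to 4.68 with at most 1.40 FPKM of Retnla. Combination replicate 2 had a macrophage score of 3.61 with 16.3 FPKM.

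In the 6 tumors with palbociclib, log2 Retnla and the fat score had Pearson's r = 0.87 (exact permutation p = 0.00972, 0.0389 adjusted over 4 relations) and Spearman's rho = 0.94 (exact permutation p = 0.0167). Without the 2 tumors farthest from the median fat score, r was 0.96. The gene, the lists and this comparison were chosen with values of these data known, so the p describes these 6 tumors and is no independent evidence. With the macrophage score r was -0.30 (exact permutation p = 0.539, adjusted 0.719) and rho -0.54 (exact permutation p = 0.297), and without the 2 farthest tumors r was -0.21. In the 6 tumors without palbociclib r was -0.08 with the fat score (exact permutation p = 0.894) and 0.38 with the macrophage score (exact permutation p = 0.419), over a narrow range of fat scores.
Leaving out single tumors from these 6, r with the fat score was 0.84 without palbociclib replicate 1 (exact permutation p = 0.1) and 0.86 without combination replicate 1 (exact permutation p = 0.0667). The relation also did not pass once arm means were removed. In deviations from the 4 arm means over all 12 tumors, r with the fat score was 0.79 and rho 0.56 (exact permutation of tumors within arms, p = 0.0972, adjusted 0.278 over 20 relations), and without palbociclib replicate 1 and combination replicate 1 r was 0.69 (exact permutation p = 0.444). In the 6 tumors with palbociclib alone, deviations from the 2 arm means had r = 0.88 (exact permutation p = 0.111). With the macrophage score, r in deviations over 12 tumors was -0.03 and rho 0.05 (exact permutation p = 0.932, adjusted 0.981). The difference between the 2 correlations was not tested.

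**Figure D4:**
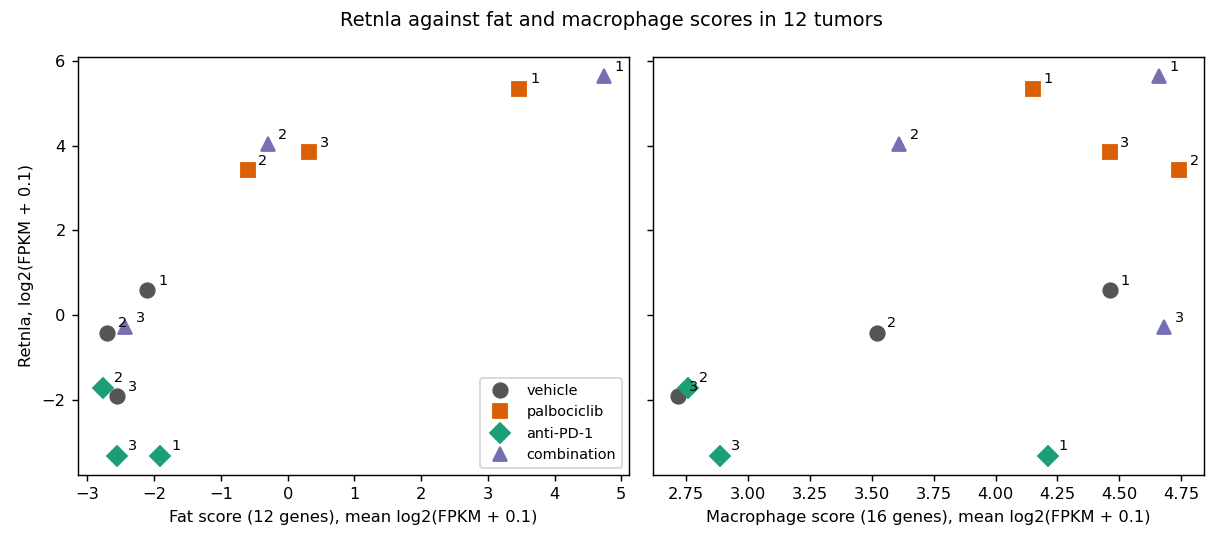
Log2(FPKM + 0.1) of Retnla against the fat score (left) and the macrophage score (right), 1 point per tumor, numbered by replicate, with arms by color and shape. The 5 tumors with fat scores above -1 have the 5 highest Retnla levels, while tumors with macrophage scores above 4 hold both the highest and the lowest Retnla levels.

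Of the 9 other members, 4 passed with the macrophage score. The share of all tested genes that would pass with it was not computed, so this count has no background beside it. Genes in no list also followed some members within arms, such as Snx2 with Mrc1 (r = 0.96). In deviations from arm means r was 0.94 for Folr2 (exact permutation p = 0.00617, adjusted 0.0412 over 20 relations), 0.93 for Mrc1 (exact permutation p = 0.00463, adjusted 0.0412), 0.88 for Mgl2 (exact permutation p = 0.00926, adjusted 0.0463) and 0.87 for Clec10a (exact permutation p = 0.00154, adjusted 0.0309), with rho of 0.92, 0.87, 0.86 and 0.87. Without the 2 tumors farthest from the median macrophage score, vehicle replicate 3 and anti-PD-1 replicate 2, the 4 values of r were 0.91, 0.90, 0.93 and 0.89. F13a1 had r = 0.82 and did not pass (exact permutation p = 0.0231, adjusted 0.0772), and without those 2 tumors r was 0.73. With the fat score these 5 genes had r of 0.08 to 0.39. Cd163 was nearer the fat score, r = 0.67 (exact permutation p = 0.0208, adjusted 0.0772), than the macrophage score, r = 0.50 (exact permutation p = 0.188, adjusted 0.464). Lyve1 had 0.47 and 0.46, and neither Chil3 (-0.18 and 0.08) nor Ccl24 (-0.41 and -0.01) passed with either score. Of the 45 pairs of members 1 passed, Mgl2 with Folr2, and pairs of other genes were not tested in this way. The 9 correlations of Retnla with other members ran from -0.47 with Chil3 to 0.60 with Cd163 and 0.69 with Lyve1, with a median of 0.20. That with Lyve1 did not pass (exact permutation p = 0.0463, adjusted 0.149 over 45 pairs).

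**Figure D5:**
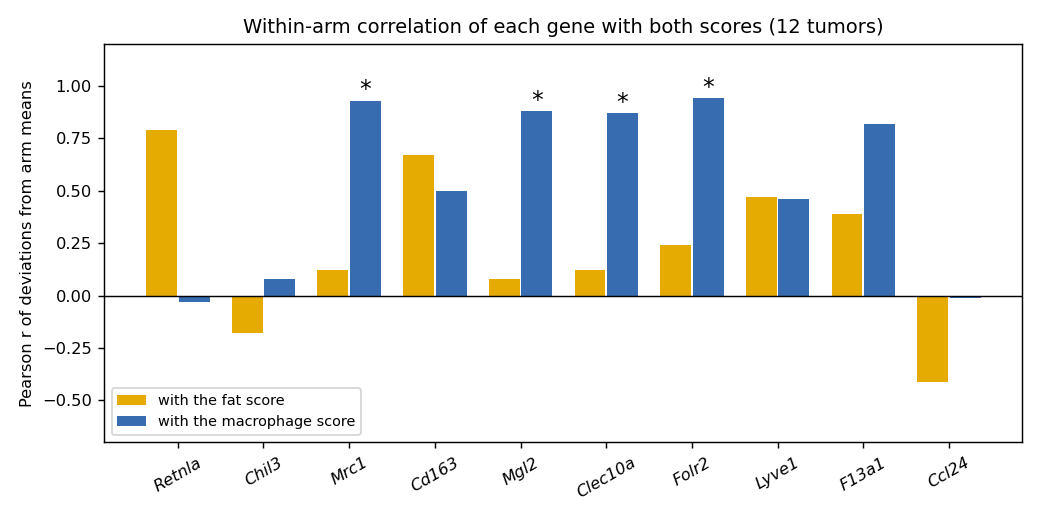
Pearson's r of each member with the fat score and the macrophage score in deviations from the 4 arm means over 12 tumors. Asterisks mark the 4 values, for Mrc1, Mgl2, Clec10a and Folr2 with the macrophage score, whose exact permutation p adjusted over 20 relations was under 0.05, and Retnla has the highest value with the fat score, 0.79.

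Both scores were also added to a linear fit of log2 Retnla on the arms. The palbociclib effect was 5.35 (SE 1.04) with the arms alone, 3.18 (SE 0.94) with the fat score and 5.43 (SE 1.46) with the macrophage score. With both it was 3.38 (SE 1.16), the slope on the fat score was 0.66 (SE 0.21) and that on the macrophage score -0.23 (SE 0.66). The fit holds 12 tumors and 6 residual degrees of freedom, and the fat score itself differed between arms, so the arm and the fat score cannot be told apart.

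The genes most like each member by Pearson's r over all 12 tumors, among 11187 genes of at least 1 FPKM on average, are given as a description, in which the arms contribute to r. For Retnla they included Itih5 (r = 0.929), Cfd, Car3, Nsmce4a, Pik3r3, Ehhadh, Mapre2, Cpt2 and Ear2 (r = 0.872). Of these, Cfd and Car3 were in the fat list, Ear2 was in a list of other alternative activation genes, and none was in the macrophage list. Adipoq came at rank 18 (r = 0.84). For Folr2 they were C1qc (r = 0.978), Sepp1 and Ly86, for Mrc1 they were Snx2, Ms4a14 and Dab2, for Mgl2 they included Pltp and Cd83, and for Clec10a they were Fam46a, Tnfrsf4 and Rasgef1b. For F13a1 they were Dhrs3, Clec10a and Fam46a, for Lyve1 Ctnnal1, Fcna and Fcrls, for Cd163 Tnfsf12, Letmd1 and Gpx3, for Chil3 Sema6b, Ept1 and Samd10, and for Ccl24 Zbtb45, Sart3 and Tmem33.

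The upstream genes of the IL-4 and IL-13 pathway ranged from flat to variable. Il4 was listed at 0 in all 12 tumors and Il13 did not exceed 0.112 FPKM. Stat6 lay between 41.8 and 51.5 FPKM, with a palbociclib effect of -0.07 (SE 0.06, limma adjusted p = 0.539), and Jak1 had -0.14 (SE 0.08, limma adjusted p = 0.31). Of the 6 tested ligand and receptor genes and the 10 signalling genes 0 passed in limma. At an unadjusted limma p under 0.05, 1 ligand or receptor gene was higher, and 3 signalling genes were higher and 1 lower. Over all tested genes 14.1% were higher and 6.44% lower. Socs1, a feedback inhibitor of Janus kinases, had 0.97 (SE 0.19, limma adjusted p = 0.0543), and Irf4, a transcription factor of alternative activation, had 1.50 (SE 0.38, limma adjusted p = 0.0911). Il13ra2, the decoy receptor for IL-13, lay between 0.182 and 8.23 FPKM, with its highest level in vehicle replicate 3. Il2rg, the common gamma chain, had 0.44 (SE 0.12, limma adjusted p = 0.105). Pparg, which acts in fat cells and in alternatively activated macrophages, was highest in palbociclib replicate 1 and combination replicate 1, at 1.73 and 4.29 FPKM.

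The other genes of alternative activation varied among themselves. Of 10 tested, 0 passed in limma and 7 were higher at an unadjusted p under 0.05, beside 14.1% of all tested genes, with a median of 1.15. Arg1, the arginase of this state, was at 9.69 to 65.4 FPKM with palbociclib, alone or combined, and 35.7 to 55.6 without, with an effect of -0.64 (SE 0.39, limma adjusted p = 0.365). Pdcd1lg2, the second ligand of PD-1, had 1.90 (SE 0.60, limma adjusted p = 0.131). Within arms Retnla had r above 0.5 with 1 of 11 of these genes, Ear2, a secreted ribonuclease, at 0.74.
Of 12 genes of tissue-resident macrophages 0 passed in limma, and 8 were higher at an unadjusted p under 0.05, beside 14.1% of all tested genes. Cd209g, a C-type lectin, was at 1.30, 1.17 and 1.66 FPKM with palbociclib, 3.56, 0.803 and 0 with the combination, and at most 0.475 without palbociclib, with an effect of 2.82 (SE 0.76, limma adjusted p = 0.102). Like Retnla it was above all tumors without palbociclib in every palbociclib-treated tumor but combination replicate 3. Its within-arm r with Retnla was 0.86, the highest of the 12, and that of Pf4, platelet factor 4, the lowest at -0.66. It exceeded 0.5 for 5 of the 12 resident genes, for 12 of 12 fat genes, from 0.63 for Fabp4 to 0.85 for Cfd, and for 0 of the 16 general macrophage genes. The share of all tested genes above 0.5 was not computed, and genes outside the lists also exceeded it, such as Itih5 at 0.77. Most fat genes were high in the same tumors, so their values of r are not independent of each other. The score of the resident genes had a within-arm r of 0.51 with Retnla (exact permutation p = 0.165, adjusted 0.619 over 15 lists) and a rho of 0.54, beside a rho of 0.56 for the fat score.

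Among relatives, Retn, the gene of resistin, which fat cells secrete in mice, was at 13.2, 0.703 and 1.47 FPKM with palbociclib and 45.8, 0.779 and 0 with the combination, and at most 0.0911 without palbociclib. Retnlg, a neutrophil-expressed relative on the same chromosome as Retnla, had the opposite sign, -1.90 (SE 0.72, limma adjusted p = 0.182), and reached 34.5 FPKM in vehicle replicate 3, where Retnla was at 0.165. No 50-base word of Retnla occurred in another gene.

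Genes of other cells and tissues also differed between tumors. Of 9 neutrophil genes 8 were tested, none passed and 5 were lower with palbociclib at an unadjusted p under 0.05, beside 6.44% of all tested genes, and the summed level of the 9 was 14.5 to 92.5 FPKM with palbociclib, alone or combined, and 32.7 to 546 without. Within arms Retnla had r = -0.59 with the neutrophil score (exact permutation p = 0.11). Eosinophils are a main source of IL-4 in fat, and of 8 eosinophil genes none reached the mean of 0.1 FPKM, their sum was at most 0.358 FPKM in a tumor, and Epx and Ear1 were listed at 0 throughout. That sum leaves out Ear2, a relative of Ear1 placed among the other alternative activation genes. Ear2 had a mean of 1.61 FPKM and was highest, at 6.77 FPKM, in combination replicate 1. The presence of eosinophils was not tested. The summed level of the 12 fat genes was 1.44 to 5.37 FPKM without palbociclib, 19.7 to 515 with palbociclib and 2.62 to 1320 with the combination. Skin genes, with Krt14 at 178 FPKM, stood out in palbociclib replicate 2 and muscle genes, with Acta1 at 90.7 and 83.2 FPKM, in palbociclib replicate 3 and combination replicate 2. Muscle genes were also high in vehicle replicate 1, with Acta1 at 24.9 FPKM and a muscle score of 2.47, against 3.67 and 3.77 in those 2 tumors. The within-arm r with Retnla was -0.13 for the skin score (exact permutation p = 0.668) and 0.01 for the muscle score (exact permutation p = 0.992). The part that fat or other tissue in a sample had in the Retnla level was not tested.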

How the data were processed

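RNA from 12 tumors was sequenced as libraries of whole tumor RNA, and the authors deposited 1 table of FPKM values per tumor. Per the labels, reads were aligned with HISAT2 to mm10 (GRCm38), and the counting tool and annotation are not given in the sources used here. Of 34745 entries, 67 repeated symbols were reduced to the one with the highest mean. The FPKM values of low genes were whole multiples of a step per gene, which put the depth at 14900000 to 20300000 fragments per tumor (median 16200000). The depth was set at the most frequent of the estimates from 3244 genes, near which 31.5% of them lay. Fragment numbers are given where the largest distance from a whole number was at most 0.1. FPKM sums ran from 261027 to 280080, and 17318 to 18499 symbols were above 0.

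Values were analysed as log2(FPKM + 0.1) for 15350 genes with a mean of at least 0.1 FPKM. limma 3.58.1 (R 4.3.3) fitted 1 mean per arm with a mean-variance trend, and p-values were adjusted by Benjamini-Hochberg over all genes at 0.05. In simulated data 153 of 200 genes changed by 1 and 181 of 200 changed by 2 on the log2 scale were recovered for the palbociclib effect among 15350 genes, each with 11 false calls. The simulated noise was independent between genes, unlike the fat and muscle genes of these tumors. The simulation therefore does not measure how stable the calls are. Correlations were tested with exact two-sided permutation within arms (1296 arrangements) or over 6 tumors (720). The labels number the tumors of an arm but tie no number across arms, and p-values measure the spread between these samples. Python 3.11.15 was used with numpy 2.4.6, pandas 2.3.3, scipy 1.17.1 and matplotlib 3.10.9.

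The members, the gene lists and the tests were chosen with earlier results of these data known, so members are described without p-values for the arms. The only call stated for a member is that of Retnla for the palbociclib effect, and nothing was read from it. Named were the 10 members, Adipoq and Stk11, the 10 genes most like Retnla and the 3 most like each other member, and up to 4 genes of a list, those with the largest and smallest palbociclib effect and the highest means. Of the most alike genes, 2 are not reported here. Il4, Il13, Irf4, Socs1, Epx, Ear1, Fabp4, Lep, Thrsp, Acvr1c, Plin1, Cidec, Chil4, mt-Nd4 and mt-Co1 fall outside this rule and were named after their values were seen. Alternatives were other pseudocounts, filters and scalings, no trend, a replicate block, shorter scores and leaving out tumors. Those without palbociclib replicate 1 and combination replicate 1, and those of the 6 tumors with palbociclib, were chosen after seeing the data.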

Additional observations from a re-analysis of the deposited data

How the results depend on the processing

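The Retnla palbociclib effect, 5.35, stayed between 4.72 and 6.21 when each tumor was left out, and between 3.49 (pseudocount 1) and 6.65 (pseudocount 0.01) under the other settings. Its r with the fat score within arms ran from 0.61 to 0.87 when each tumor was left out and from 0.63 to 0.85 otherwise, and passed under no setting (exact permutation p = 0.0648 to 0.444). Its r with the macrophage score within arms ran from -0.25 to 0.29 when each tumor was left out and turned to 0.03 with the shorter score list (exact permutation p = 0.952). Over the 6 tumors with palbociclib, r with the fat score ran from 0.84 to 0.98 and with the macrophage score from -0.52 to 0.02 when each tumor was left out, and deviations from the 2 arm means gave 0.88 with the fat score, no longer passing.

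Counts of calls over all genes were unstable, and the cause was not tested. For the palbociclib effect the 48 calls, 79.2% of them higher, became 11 without a filter, 0 without the trend, 129 with the replicate block and 0 without palbociclib replicate 1 and combination replicate 1, and 0 to 758 when each tumor was left out. The lowest counts came without vehicle replicate 2, palbociclib replicate 3, anti-PD-1 replicate 2 or 3, or combination replicate 1, and the highest without anti-PD-1 replicate 1. Quantile normalization gave 44 calls, 63.6% higher, with the median of all genes at -0.026 in place of 0.055. For palbociclib minus vehicle the 22 calls became 1 under quantile normalization, 6 without the trend, 51 with the replicate block, 4 without those 2 tumors, 0 with only the 2 arms and 1 to 46 when each tumor was left out. For combination minus vehicle the 2 calls became 5 with pseudocount 0.01, 1 without the trend, 1 with the replicate block, 0 without the 2 tumors, 0 with only the 2 arms and 0 to 5 when each tumor was left out. For combination minus anti-PD-1 the 1 call became 2 without a filter, 0 without the 2 tumors, 0 with only the 2 arms and 0 to 6 when each tumor was left out. For combination minus palbociclib the 1 call became 2 with a filter at 1 FPKM, 5 without a filter, 2 as TPM, 3 without the 2 tumors, 0 with only the 2 arms and 1 to 4 when each tumor was left out. For the anti-PD-1 effect 0 calls became 1 with the filter at 1 FPKM, 3 without a filter and 0 to 1 when each tumor was left out, and for anti-PD-1 minus vehicle 1 without a filter and 0 to 1. The interaction gave 0 calls, 1 with pseudocount 0.01, 2 with the filter at 1 FPKM, 7 without a filter, 1 as TPM, 2 under quantile normalization and 0 to 3 when each tumor was left out.

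The labels do not tie replicate numbers across arms, and whether same-numbered tumors share a factor cannot be told from these values. Of 18 same-numbered pairs, 7 had deviations correlated above 0.1 (r from -0.21 to 0.45, against -0.35 to 0.31 for other pairs between arms). Of 12 tumors, 6 correlated best with one of their own number, and the number expected without a shared factor was not computed. The fat score was highest in replicate 1 of every arm. With the replicate block r of Retnla within arms was 0.80 with the fat score (exact permutation p = 0.117) and -0.57 with the macrophage score (exact permutation p = 0.16). With 3 tumors per arm and 2 tumors holding most of the fat signal, the drug and the fat content of a sample cannot be told apart.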
